A study of Mus musculus with 12 samples.

Results

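The expression of 10 marker genes of Kupffer cells and other macrophages was examined in the livers of germ-free and conventionalized mice. The markers were Clec4f, Vsig4, Cd5l, Timd4, Marco, Lyz2, Csf1r, Adgre1, C1qa and C1qb, taken by their symbols from a table of 41128 genes, and each symbol matched 1 row. RNA was sequenced from the liver of 12 C57BL/6 mice, 1 library per mouse. Germ-free (GF) mice stayed in sterile isolators throughout, whereas their conventionalized (CV) littermates were germ-free until weaning at day 21 and then lived outside the isolators on soiled bedding of other mice for 3 weeks. Livers were taken at 6 weeks of age from 3 mice labelled male and 3 labelled female in each condition. No allele, transgene or drug was given for any group, and the labels do not say which mice shared a litter or a cage.

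Kupffer cells are the resident macrophages of the liver sinusoids, where they clear microbes, immune complexes and aged red blood cells from portal blood. They depend on signaling through the receptor encoded by Csf1r, and their identity genes are set by the liver environment together with general macrophage transcription factors such as PU.1. Clec4f, Vsig4, Cd5l, Timd4 and Marco mark Kupffer cells within the liver, whereas Lyz2, Csf1r, Adgre1, C1qa and C1qb are expressed by many kinds of macrophage.

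In CV livers, transcripts of both C1q chains, of lysozyme, and of the Kupffer cell genes Vsig4 and Cd5l were upregulated in either sex, whereas Clec4f, Csf1r, Timd4 and Marco did not pass the test. Over both sexes, Lyz2 was 4.13-fold, C1qa 3.47-fold, C1qb 3.09-fold, Vsig4 2.27-fold and Cd5l 2.04-fold higher in CV than in GF livers, and Adgre1 was 1.62-fold higher. Within a library, 5 of the 9 other markers were also higher relative to Clec4f in CV than in GF livers, against 17.1% of all tested genes, with Clec4f taken as the reference after the values had been seen. The calls in females depended on how the values were scaled and processed, and condition and library composition cannot be told apart in this design. In bulk liver, fewer cells of a type and less RNA per cell cannot be told apart.

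Values are the deposited normalised read counts, that is, the reads of a gene divided by 1 factor per library. Libraries held 5993619 to 15290835 reads, and the 12 pairs of libraries within a group all differed by more than sampling noise (lowest chi-square per degree of freedom, 12.4). Loci for mitochondrial ribosomal RNA and 5 others (Lars2, Mir6236 and 3 predicted genes) took 41.8% to 69.4% of the reads in GF libraries and 5.39% to 21.9% in CV libraries, without overlap. Reads outside these abundant loci numbered 1834565 to 5303292 in GF and 6943462 to 14411498 in CV libraries. Usable depth thus did not overlap between the conditions either. The library labelled CV male 3 went against its label: the genes Uty, Kdm5d, Ddx3y and Eif2s3y of the Y chromosome had 0 reads in it, against 796 to 1314 summed in the other 5 libraries labelled male, and its Xist value was 2382. Its label was not changed, and values without it are given beside the comparisons of condition and of sex.

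Differences were tested with limma on log2(value + 1) over all 11782 genes with a mean value of at least 10, with p-values adjusted by Benjamini-Hochberg over all of them and a threshold of 0.05. This scale understates the change of genes with low values. All 10 markers passed the filter on low values. A difference is given as CV minus GF in log2 units with its standard error (SE). In males, 5 of the 10 markers were higher in CV, against 14.1% of all tested genes, and 0 were lower, against 15.4%. In females, 5 were higher, against 29.8% of all genes, and 0 lower, against 26%. Over both sexes, 6 were higher, against 32.3%, and 0 lower, against 28.7%. No marker was lower in CV at an unadjusted limma p under 0.05 in any of the 3 comparisons (0 of 10 in each), and the edgeR and DESeq2 tests on whole reads gave 0 as well. The median difference over the 10 markers was 0.93 over both sexes, beside 0.07 over all tested genes.

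**Figure D1:**
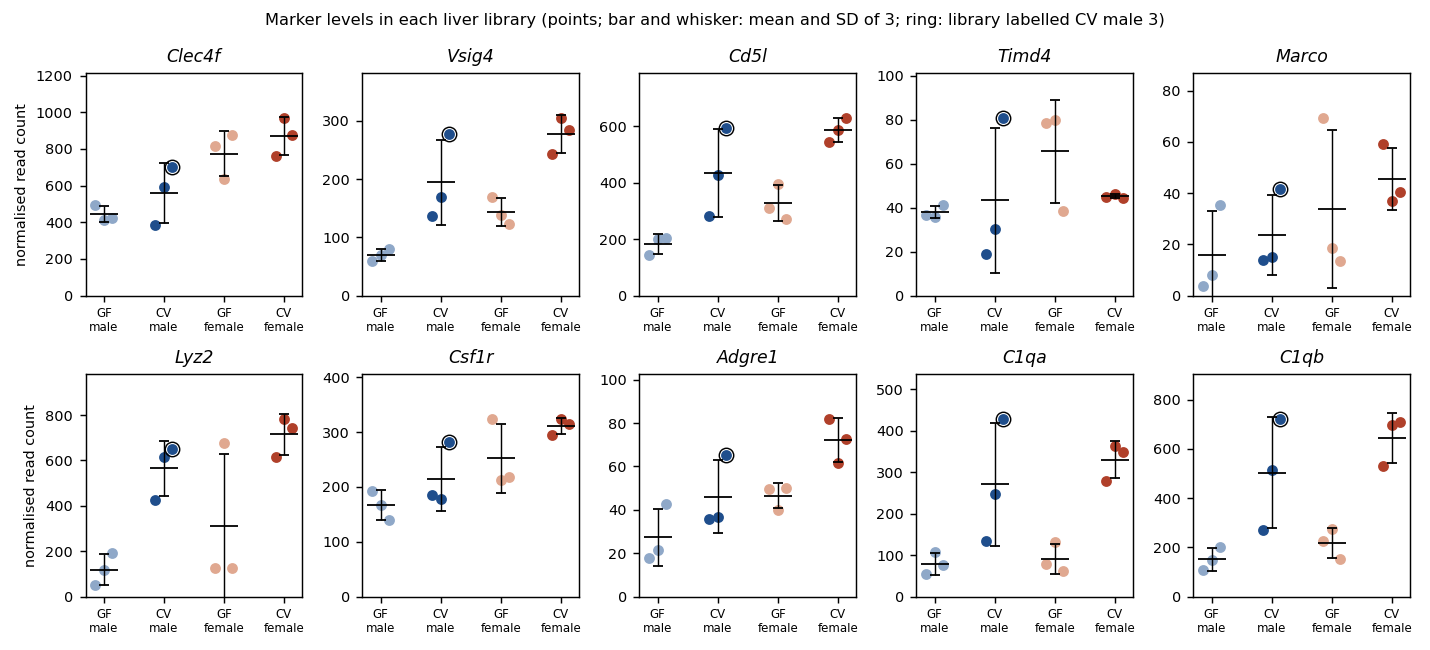
Normalised read count of each marker (vertical axis, from 0) in each of the 12 libraries by condition and labelled sex. Points are libraries, bars and whiskers show the mean and SD of 3 libraries, and the ring marks the library labelled CV male 3. For C1qa, C1qb, Vsig4 and Cd5l every CV point lies above every GF point of the same labelled sex, whereas Lyz2 in 1 GF female (678) reaches the level of the CV females.

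C1qa and C1qb encode the A and B chains of C1q, the recognition subunit that starts the classical complement pathway, and macrophages are its main source in tissues. The genes lie near each other on chromosome 4 (GRCm38 chr4:136895917-136898803 and chr4:136880129-136886187, minus strand). C1qa values were 53.7, 107.8 and 75.1 in GF males and 134, 248 and 429 in CV males. In females they were 78.5, 130.3 and 61.3 in GF and 278, 363 and 349 in CV. Every CV library was above every GF library of its labelled sex. The difference was 1.67 ± 0.38 (SE) in males (adjusted p = 0.00545, limma) and 1.92 ± 0.38 in females (adjusted p = 0.000522).

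C1qb read 107.5, 148 and 199.8 in GF males and 271, 516 and 723 in CV males. In females the values were 225, 274 and 151 in GF and 529, 696 and 711 in CV. The groups again did not overlap in either sex. C1qb differed by 1.66 ± 0.34 in males (adjusted p = 0.00311, limma) and by 1.60 ± 0.34 in females (adjusted p = 0.000912). The third chain is encoded by C1qc, which is no member of the marker set and is named here after its values were seen. C1qc averaged 164 ± 59 (SD, n = 6) in GF and 416 ± 143 (SD, n = 6) in CV livers, and was higher by 1.33 ± 0.25 over both sexes (adjusted p = 0.000261, limma).

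Lyz2 encodes lysozyme 2, the enzyme that cleaves bacterial cell walls and that macrophages secrete (chr10:117277331-117282321, minus strand). Its values were 50.1, 115.8 and 189.9 in GF males and 427, 615 and 650.5 in CV males, with no overlap. In GF females they were 125, 678 and 127, and in CV females 614, 784 and 745. GF female 2 stood apart from the other 5 GF libraries and lay within the range of the CV libraries, so the female groups overlapped. The difference was 2.41 ± 0.53 in males (adjusted p = 0.00457, limma) and 1.68 ± 0.53 in females (adjusted p = 0.0132). In females the edgeR and DESeq2 tests on whole reads did not call Lyz2, and neither did limma without GF female 1 or without GF female 3.

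The paralog Lyz1, expressed chiefly by Paneth cells of the intestine, has a transcript that is 96.0% identical to that of Lyz2 over the aligned bases, so reads could be split between them. Lyz1 held 0 to 2 reads per library, against 56 to 1459 for Lyz2, and at most 2.94% of the reads of the pair.

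GF female 2 also held the highest summed value of monocyte and neutrophil markers, 239, against 94.0 to 128 in the other GF libraries, and the highest sum of erythroid markers, 32901, against 2781 to 14036. The neutrophil granule genes Ngp, Mpo, Elane, Camp and Ltf were near 0 in all libraries, with 3 to 10 reads over all 12. The part of other cells in the Lyz2 value of this library was not tested.

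Vsig4 encodes CRIg, a complement receptor by which Kupffer cells capture C3-coated particles (chrX:96247203-96293438, minus strand). GF males had values of 60.0, 70.5 and 79.4, and CV males had 136, 170.1 and 277. GF females had 169, 138 and 123, and CV females had 243, 306 and 285. Vsig4 thus separated the conditions without overlap in both sexes. It was higher by 1.41 ± 0.27 in males (adjusted p = 0.0022, limma) and by 0.96 ± 0.27 in females (adjusted p = 0.0065).

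Cd5l encodes a secreted scavenger receptor protein, also called AIM, that circulates bound to IgM (chr3:87357881-87371073, plus strand). Its values were 142, 201 and 204 in GF males against 282, 427 and 595 in CV males. They were 311, 396 and 272 in GF females against 544, 586 and 629.8 in CV females. Again no GF library reached the lowest CV library of its sex. The differences were 1.20 ± 0.27 in males (adjusted p = 0.0055, limma) and 0.86 ± 0.27 in females (adjusted p = 0.014). Without CV female 3 or GF female 3 the call in females was lost.

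By the same count of groups that did not overlap, 5 markers were higher in CV in males (C1qa, C1qb, Lyz2, Vsig4 and Cd5l), against 22% of all tested genes, and 5 in females (C1qa, C1qb, Vsig4, Cd5l and Adgre1), against 34%. The remaining markers overlapped between conditions in both sexes, and 0 lay wholly lower in CV, against 21.1% of genes in males and 31% in females.

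Adgre1 encodes F4/80, a surface protein widely used to stain mouse macrophages (chr17:57358691-57483527, plus strand). It was sparse, with 15 to 195 reads per library. Values were 17.9, 21.3 and 42.5 in GF males, 35.9, 36.6 and 65.4 in CV males, 49.8, 39.9 and 49.8 in GF females, and 82.0, 61.8 and 72.9 in CV females. The female groups did not overlap, and GF male 3 lay above 2 of the CV males. The difference was 0.70 ± 0.24 over both sexes (adjusted p = 0.0195, limma), and in neither sex alone did it pass the test (0.78 ± 0.34 in males, adjusted p = 0.0969, and 0.62 ± 0.34 in females, adjusted p = 0.132). The call over both sexes was lost without CV female 1 (0.65), CV male 3 (0.56) or GF male 1 (0.58), and it was gained in males alone without GF male 3.

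The following 4 markers did not pass the limma test of the condition in males, in females or over both sexes. Clec4f encodes a C-type lectin receptor that within the mouse is largely restricted to Kupffer cells (chr6:83644542-83656187, minus strand). Its values were 495, 415 and 424 in GF males and 384, 591 and 702 in CV males, and those of the library labelled CV male 3 were the highest of these 6. In females they were 815, 636 and 874 in GF and 764, 971 and 878 in CV. The groups overlapped in both sexes. The difference over both sexes was 0.23, with a 95% interval of -0.14 to 0.61 (adjusted p = 0.268, limma), and the upper bound lay below the estimates of the 6 called markers.

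Csf1r encodes the receptor for the growth factors CSF1 and IL-34 and is needed for the survival of macrophages. GF males had values of 193, 166 and 139, and CV males had 185, 177 and 283. GF females had 325, 213 and 219, and CV females had 295, 324 and 315. The groups overlapped in both sexes, with the library labelled CV male 3 above the other 5 labelled male and 2 GF females below the other 4 females. The difference over both sexes was 0.34, with a 95% interval of -0.04 to 0.72 (adjusted p = 0.109, limma). Csf1r overlaps Hmgxb3 on the opposite strand, and the strand setting of the read counting was not given in the sources used here. Of its ligands, Csf1 averaged 61.5 ± 19.6 (SD, n = 6) in GF and 50.2 ± 15.3 in CV livers (adjusted p = 0.30 for the difference, limma), and Il34 was higher in CV by 0.77 ± 0.30 (adjusted p = 0.0362). Both ligands are named after their values were seen.

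Timd4 encodes TIM-4, a receptor for phosphatidylserine on dying cells that marks long-lived resident Kupffer cells (chr11:46810800-46844332, plus strand). Its values were 36.7, 35.9 and 41.1 in GF males, 18.7, 30.2 and 80.9 in CV males, 78.5, 79.8 and 38.3 in GF females, and 45.0, 46.4 and 44.6 in CV females. CV females were close to each other, and the highest CV male was the library labelled CV male 3. The difference over both sexes was -0.26, with a 95% interval of -0.89 to 0.37 (adjusted p = 0.460, limma), and leaving out the library labelled CV male 3 gave -0.55 (adjusted p = 0.0644).

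Marco encodes a scavenger receptor for bacterial surfaces and inhaled or circulating particles (chr1:120474538-120505024, minus strand). It had 4 to 141 reads per library, the lowest among the markers. Its values were 3.6, 8.0 and 35.4 in GF males, 14.1, 15.1 and 41.8 in CV males, 69.4, 18.6 and 13.4 in GF females, and 59.3, 36.9 and 40.3 in CV females. In GF livers of each sex 1 library stood high above the other pair. The difference over both sexes was 0.84, with a 95% interval of -0.18 to 1.86 (adjusted p = 0.142, limma), and it passed the test without GF female 1 (1.18) or without GF male 3 (1.26).

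**Figure D2:**
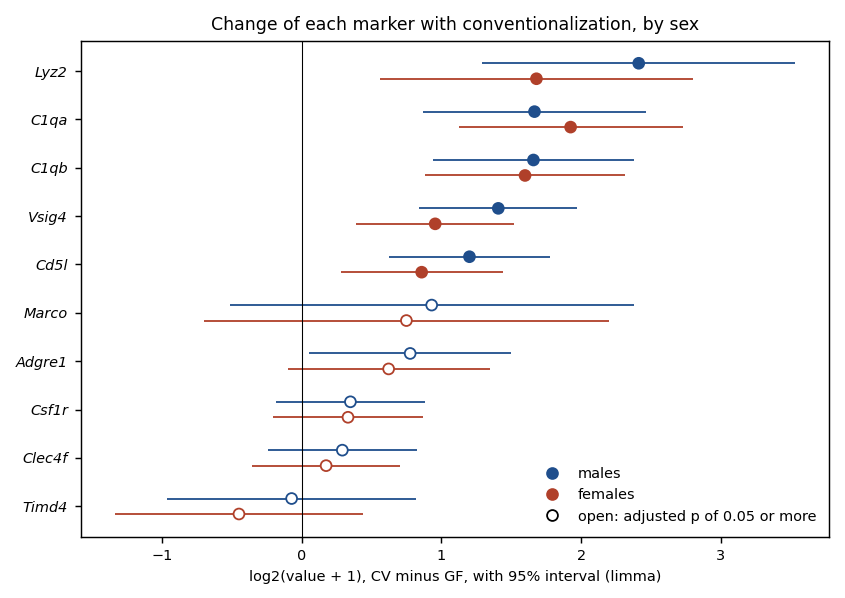
Difference between CV and GF livers on the log2(value + 1) scale (horizontal axis) for each marker, with the 95% interval from limma, in males and in females. Filled points passed an adjusted p of 0.05. Lyz2, C1qa, C1qb, Vsig4 and Cd5l are filled in both sexes, and the intervals of Clec4f, Csf1r, Timd4 and Marco span 0.

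The difference between conditions was not shown to differ between the sexes. Of the 10 markers, 0 passed the test of the interaction in limma, beside 0% of all tested genes in either direction. At an unadjusted p under 0.05 the count was also 0, and it was 0 with edgeR and with DESeq2. The estimates ran from -0.73 for Lyz2 to 0.26 for C1qa (female minus male difference). The intervals were wide, from -2.32 to 1.87 over all markers. Without the library labelled CV male 3, 0 passed either, with estimates from -0.62 for Lyz2 to 0.67 for C1qa.

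All 10 markers had lower estimates in libraries labelled male than in those labelled female, in GF livers by 0.17 to 1.24 log2 units and in CV livers by 0.33 to 1.06. In limma, 0 of these passed in GF livers (1.23% of all genes passed as higher in males and 0.399% as lower) and 0 in CV livers (0.0509% and 0.00849%). At an unadjusted p under 0.05, 5 markers were lower in GF males, against 5.9% of all genes, and 3 in CV males, against 2.17%. In CV livers the differences were larger without the library labelled CV male 3. Leaving it out gave estimates lower in males by 0.47 (Lyz2) to 1.55 (Marco), and 9 markers (all but Lyz2) at an unadjusted p under 0.05, against 2% of all genes, with 0 past the adjusted threshold in limma. With edgeR 0 were called in either condition, with 6 and 2 at an unadjusted p under 0.05, and DESeq2 called 2 in GF and 0 in CV livers. Of all genes in both directions, edgeR had 1950 and 711 at that unadjusted level, and DESeq2 called 425 and 52. Vsig4 came nearest in GF livers, at 70.0 ± 9.7 (SD, n = 3) in males and 143 ± 24 (SD, n = 3) in females, with a difference of -1.02 ± 0.27 (adjusted p = 0.0628, limma). The library labelled CV male 3 enters this contrast only through the shared estimate of the spread, and leaving it out gave an adjusted p of 0.0362 in limma. In GF livers the abundant loci took 41.8% to 51.7% of reads in males and 58.2% to 69.4% in females, without overlap. Labelled sex and library composition thus cannot be told apart in GF livers. With the abundant or the mitochondrial share as a covariate, 0 markers were called there, beside 9 and 4 of all 11782 genes.

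Without the library labelled CV male 3, the same 5 markers were called in males and in females. Their differences in males were then smaller, at 1.26 for C1qa, 1.34 for C1qb, 2.30 for Lyz2, 1.12 for Vsig4 and 0.94 for Cd5l. Over both sexes 5 were called in place of 6, as Adgre1 dropped out. Of all 11782 tested genes, that fit called 1431 higher in males, 3536 in females and 3777 over both sexes.

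Levels of different genes can be compared only per length of transcript, here per kilobase of exon. In GF livers Clec4f led, at 247 ± 81 (SD, n = 6), followed by C1qb at 169 ± 56, Lyz2 at 163 ± 176, Cd5l at 125 ± 45, C1qa at 81.2 ± 28.0, Vsig4 at 71.9 ± 29.2 and Csf1r at 36.2 ± 11.1. Timd4, Marco and Adgre1 lay between 11.4 and 23.8. In CV livers C1qb led at 528 ± 161 and Lyz2 followed at 486 ± 95, ahead of Clec4f at 289 ± 85, C1qa at 289 ± 100, Cd5l at 251 ± 65 and Vsig4 at 159 ± 46. Csf1r was at 45.6 ± 11.3, and Timd4, Adgre1 and Marco lay between 18.0 and 20.4. Neighbours in these orders lay within the larger of their SDs of each other, except Vsig4 and Csf1r as well as Csf1r and Timd4 in either condition, and, in CV livers, Lyz2 and Clec4f as well as Cd5l and Vsig4.

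Because each library has 1 factor for all genes, the ratio of 2 markers within a library does not depend on the scaling, apart from the added pseudocount. Each marker was therefore set against Clec4f, the marker most restricted to Kupffer cells, as log2(value + 1) minus log2(Clec4f value + 1). This comparison was chosen after the values had been seen, and the 9 ratios share their denominator. Condition labels were exchanged within each sex in all 400 ways, a two-sided exact permutation test whose smallest possible p is 0.005.

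Relative to Clec4f, Vsig4 was 1.93-fold higher in CV livers (0.95 log2 units, exact permutation p = 0.005), C1qa 2.95-fold (1.56, p = 0.005 in the exact test) and C1qb 2.63-fold (1.40, p = 0.005 in the exact test). For these 3 genes every CV library exceeded every GF library of its sex. Lyz2 was 3.52-fold higher (1.81, exact permutation p = 0.02) and Cd5l 1.74-fold (0.80, exact permutation p = 0.01). Adgre1 (0.47, exact permutation p = 0.085), Marco (0.61, exact p = 0.335), Csf1r (0.11, exact p = 0.475) and Timd4 (-0.49, exact p = 0.12) did not pass. Of the 9 ratios, 5 thus passed as higher and 0 as lower in CV, against 17.1% and 34.2% of all tested genes set against Clec4f in this way. Leaving out any 1 library kept the calls of C1qa, C1qb, Vsig4, Cd5l and Lyz2. Timd4 passed without GF female 3 (-0.71, exact p = 0.035) or the library labelled CV male 3 (-0.69, exact p = 0.035), and Adgre1 passed without GF male 3 (0.66, exact p = 0.015). After removal of the length and GC trend described next, Csf1r (0.86, exact p = 0.01) and Adgre1 (0.70, exact p = 0.03) passed as well.

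**Figure D3:**
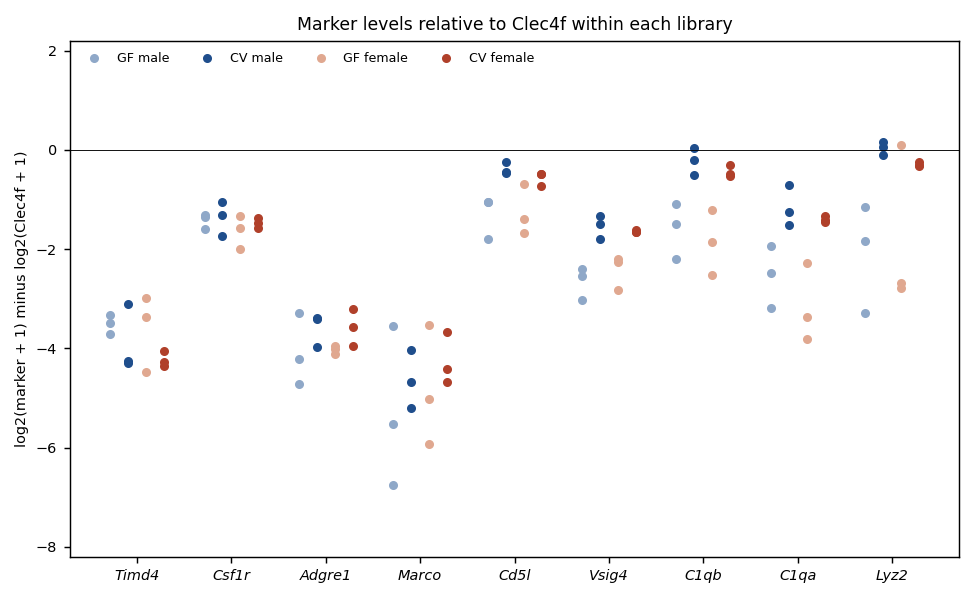
Level of each marker relative to Clec4f in the same library (vertical axis, log2 units) by condition and labelled sex. Each point is 1 library. For Vsig4, C1qa and C1qb the CV points lie above the GF points of the same sex, and for Csf1r and Timd4 the conditions overlap.

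The markers differ in transcript length, and the 4 with the shortest exon length were the 4 with the largest differences: C1qa (1040 bases), C1qb (1088), Lyz2 (1316) and Vsig4 (1484). Cd5l has 2036 bases, and Adgre1, called only over both sexes, has 3238. The markers without a call in the main test have 1925 (Marco), 2173 (Timd4), 2471 (Clec4f) and 5774 (Csf1r), so Adgre1 is longer than all of these but Csf1r. When a trend on transcript length and GC content was removed from every library, C1qa (1.07), C1qb (0.89), Lyz2 (1.47) and Vsig4 (0.80) remained called over both sexes. Cd5l fell below the threshold (0.36, adjusted p = 0.0818, limma) and so did Adgre1 (0.32, adjusted p = 0.277). Csf1r was then called as higher (0.48, adjusted p = 0.0310) and Timd4 as lower in CV (-0.70, adjusted p = 0.0403). In females alone, the same step left C1qa (0.95) as higher and Timd4 (-1.002) as lower in CV, and 5 markers stayed higher in males.

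Scaling also moved the values. The median of all genes over both sexes was 0.07 in the deposited scaling, 0.62 when libraries were scaled to all reads and -0.38 when they were scaled to reads outside the abundant loci, and the numbers of genes called higher and lower were 3807 and 3387, 5926 and 1614, and 2145 and 4864, respectively. Relative to the median of all genes, Lyz2 stood at 1.97, 1.98 and 1.96, Clec4f at 0.16, 0.17 and 0.15, and Timd4 at -0.34, -0.34 and -0.33. Of the markers, 9 were called higher in the scaling to all reads (all but Timd4, 0.29) and 5 in the scaling outside the abundant loci (C1qa, C1qb, Lyz2, Vsig4 and Cd5l). Clec4f (-0.23) and Csf1r (-0.12) had the opposite sign in that last scaling.

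The share of reads in the abundant loci did not overlap between conditions, and neither did the share in mitochondrial ribosomal RNA, at 9.36% to 16.4% in GF and 1.39% to 6.32% in CV libraries. With either share as a covariate 0 markers were called in limma, and over both sexes 7 (abundant loci) and 0 (mitochondrial ribosomal RNA) of all 11782 genes were called. The estimates of the markers called in both sexes were larger than without a covariate, at 3.23 and 3.95 for C1qa, 2.64 and 3.44 for C1qb, 2.49 and 3.40 for Lyz2, 1.59 and 2.12 for Vsig4 and 1.91 and 2.29 for Cd5l, with adjusted p from 0.156 (C1qa) to 0.683 (Lyz2) in limma. Condition and library composition cannot be told apart in this design.

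**Figure D4:**
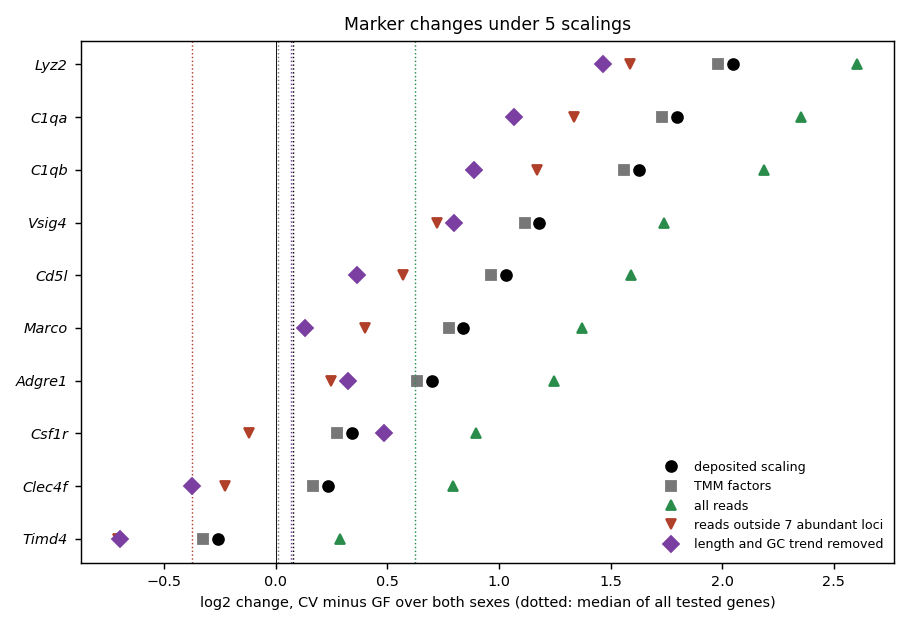
Difference between CV and GF livers over both sexes (horizontal axis, log2 units) for each marker under 5 treatments of the values. Dotted lines give the median of all tested genes in the same color. Lyz2, C1qa, C1qb and Vsig4 stay right of 0 under all 5, from 0.72 upwards, whereas Clec4f, Csf1r and Timd4 change sign among them.

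To look for features of sequence that the marker rule did not use, the 250 bases before the transcription start were searched for short motifs of macrophage transcription factors. RefSeq start sites on GRCm38.p6 were available here for 7 of the 10 markers. For PU.1 the core GAGGAA was used, which reads TTCCTC on the opposite strand. For RBPJ the letters were TGGGAA. For MAF they were those of the half-site, TGCTGA. Each was searched on both strands, and no match of 1 motif overlapped a match of another in these windows. Windows of 5 markers are shown to compare genes called in the main test of condition (Vsig4, Cd5l and C1qb) with genes not called in it (Timd4 and Marco). Capitals mark the PU.1 core, and each window is written 5′ to 3′ on the strand of its gene, at chrX:96293439-96293688 (minus strand) for Vsig4, chr3:87357631-87357880 (plus) for Cd5l, chr4:136886201-136886450 (minus) for C1qb, chr11:46810549-46810798 (plus) for Timd4 and chr1:120505025-120505274 (minus) for Marco.
Vsig4: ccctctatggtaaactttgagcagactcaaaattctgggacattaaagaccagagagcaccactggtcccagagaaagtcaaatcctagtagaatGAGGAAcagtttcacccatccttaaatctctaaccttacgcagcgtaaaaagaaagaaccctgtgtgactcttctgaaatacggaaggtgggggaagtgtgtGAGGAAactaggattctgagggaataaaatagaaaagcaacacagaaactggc
Cd5l: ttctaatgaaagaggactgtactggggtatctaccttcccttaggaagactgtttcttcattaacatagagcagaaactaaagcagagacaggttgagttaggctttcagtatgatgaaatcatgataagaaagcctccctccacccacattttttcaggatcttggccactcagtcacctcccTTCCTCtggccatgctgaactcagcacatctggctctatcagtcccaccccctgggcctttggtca
C1qb: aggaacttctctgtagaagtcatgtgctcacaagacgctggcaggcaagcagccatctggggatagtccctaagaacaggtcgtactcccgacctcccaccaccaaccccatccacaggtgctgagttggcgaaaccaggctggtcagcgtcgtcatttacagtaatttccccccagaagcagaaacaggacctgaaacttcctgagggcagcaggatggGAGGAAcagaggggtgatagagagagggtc
Timd4: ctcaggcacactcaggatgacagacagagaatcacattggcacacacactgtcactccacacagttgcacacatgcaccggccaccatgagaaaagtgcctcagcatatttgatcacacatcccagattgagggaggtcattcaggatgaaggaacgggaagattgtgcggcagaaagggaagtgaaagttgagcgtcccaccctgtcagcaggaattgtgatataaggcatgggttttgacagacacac
Marco: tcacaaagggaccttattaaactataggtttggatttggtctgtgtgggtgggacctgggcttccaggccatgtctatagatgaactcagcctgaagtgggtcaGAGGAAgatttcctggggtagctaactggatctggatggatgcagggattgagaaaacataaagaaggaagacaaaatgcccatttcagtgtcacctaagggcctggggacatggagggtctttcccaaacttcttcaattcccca

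The PU.1 core was present in 4 of the 7 windows, beside 23.3% of 32851 RefSeq promoter windows of the same length. Vsig4 held 2 copies, 155 and 53 bases before the start, Cd5l 1 copy at 66 bases, C1qb 1 at 30 bases and Marco 1 at 146 bases, whereas Timd4, Clec4f and Lyz2 held none. The RBPJ motif was in 3 of 7 windows (21.6% of all windows) and the MAF half-site in 5 of 7 (16.1%). The core was thus found in genes with and without a call, and a match of these letters is not a binding site.

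Spi1, which encodes PU.1, averaged 21.6 ± 4.9 (SD, n = 6) in GF and 45.9 ± 17.5 in CV livers and was higher in CV by 0.98 ± 0.25 (adjusted p = 0.00341, limma). Maf was lower in CV by 1.35 ± 0.28 (280.0 ± 94.7 in GF and 115 ± 53 in CV, adjusted p = 0.000631). Rbpj did not pass (-0.14, adjusted p = 0.699). These 3 genes are named because their motifs were searched. They belong to a list of 14 growth factors, receptors and transcription factors of macrophages, of which 4 rose and 4 fell in CV (median, -0.10), beside 32.3% and 28.7% of all genes. With reads outside the abundant loci as the scale, 1 was higher and 7 lower, and after removal of the length and GC trend 2 were higher and 4 lower. By the smallest p, Id3, a regulator of Kupffer cell identity, was higher by 1.37 ± 0.17 and Csf2ra, a receptor chain for GM-CSF, was lower by 1.52 ± 0.24.

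Other genes enriched in Kupffer cells moved in part with the markers. Of 12 such genes, 8 rose and 0 fell in CV over both sexes (median, 0.85), beside 32.3% and 28.7% of all tested genes. No gene of the list was lower at an unadjusted limma p under 0.05 (0 of 12, and 0 with edgeR and DESeq2). Hpgd, which degrades prostaglandins, was higher by 1.31 ± 0.19 (495 ± 129 in GF and 1202 ± 145 in CV, SD, n = 6), and Slc40a1, the iron exporter ferroportin, by 0.86 ± 0.16 (491 ± 110 in GF and 883 ± 148 in CV). Both also have other sources in liver. With reads outside the abundant loci as the scale, 4 of the 12 were higher and 2 lower, and after removal of the length and GC trend 3 were higher and 1 lower.

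Among 17 general macrophage genes, 16 were tested, of which 6 rose and 2 fell (median, 0.34), beside 32.3% and 28.7% of all tested genes. Lgmn, a lysosomal protease, was higher by 1.08 ± 0.16, and Mertk, a receptor for the uptake of dying cells, was lower by 1.18 ± 0.22. The split of calls depended on the scale, with 12 higher and 0 lower when scaled to all reads and 1 higher and 3 lower when scaled to reads outside the abundant loci. Of 6 partners and targets of C1q in the complement pathway, 5 rose and 0 fell (median, 1.28), beside 32.3% and 28.7% of all tested genes. Most of the 6 are made by hepatocytes. C1qc, itself a C1q chain, is counted both here and among the 12 Kupffer cell genes above, and rose in each count. Serping1, the C1 inhibitor, was higher by 1.93 ± 0.23 and C1rl by 1.23 ± 0.19.

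Inflammatory products of macrophages were sparse. Of 12 such genes, 3 passed the filter, and 2 of these were lower in CV and 0 higher, beside 28.7% and 32.3% of all tested genes. The chemokine gene Ccl4 averaged 17.9 ± 3.7 (SD, n = 6) in GF and 2.98 ± 2.41 in CV livers (-2.41 ± 0.44, adjusted p = 0.000211, limma), and Il1a averaged 48.2 ± 16.8 and 20.0 ± 8.4 (-1.25 ± 0.26, adjusted p = 0.000602). Nos2 had 0 reads in all 12 libraries. Of 5 markers of lipid-associated macrophages, 3 were tested and 2 were higher, Cd9 by 1.09 ± 0.27 and Lgals3 by 0.89 ± 0.29, whereas Trem2 and Gpnmb were too low to test, with 38 and 13 reads over all libraries.

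Markers of other liver cells moved with the condition too. The counts below are over both sexes, where 32.3% of all tested genes were higher and 28.7% lower in CV. Summed over a list, lymphocyte markers ranged from 290.1 to 421 in GF and 88.0 to 133 in CV libraries, and 7 of 8 tested were lower and 0 higher in CV (Nkg7 by 1.91 and Cd8a by 2.84). Erythroid markers ranged from 2781 to 32901 in GF and from 916 to 3160 in CV libraries, with 4 of 5 lower (Hbb-bt, -2.39, and Hba-a1, -2.28). Dendritic cell markers summed to 74.5 to 339 in GF and 39.6 to 128 in CV, and both tested genes, Clec9a (-2.99) and Zbtb46 (-0.93), were lower. Of 12 sinusoidal endothelial markers 5 were lower and 0 higher (Stab2, -1.87, and Stab1, -1.73), with sums of 2543 to 6023 in GF and 1266 to 3341 in CV. Scaled to all reads, 2 of these were lower and 2 higher, and scaled to reads outside the abundant loci 7 were lower and 0 higher. Of the 2 dendritic cell genes, 1 was called in the scaling to all reads, after removal of the trend, and without GF male 1, GF male 3, GF female 3, CV male 1, the library labelled CV male 3, CV female 2 or CV female 3.

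Hepatocyte markers had a median difference of 0.88, beside 0.93 for the 10 markers and 0.07 for all tested genes. They summed to 137382 to 522181 in GF and 456930 to 736079 in CV libraries, with 8 of 12 higher and 0 lower (Hpx, 2.04, and Cyp2e1, 1.58). This count was 5 with TMM scaling, 4 (and 1 lower) in the scaling outside the abundant loci, 5 (and 1 lower) after removal of the trend, and 5 without any 1 of GF male 1, GF male 3, GF female 3, CV female 1 or CV female 2. Stellate cell markers gave 3 higher and 2 lower of 11 (Colec11, 1.12, and Hgf, -0.72), beside 32.3% and 28.7% of all tested genes. They summed to 1808 to 3567 in GF and 1993 to 3633 in CV. Their split was 7 and 0 in the scaling to all reads, 1 and 3 in that outside the abundant loci and 6 and 0 after removal of the trend, and 1 was higher without GF female 1, GF female 3, CV male 2, CV female 2 or CV female 3. Bile duct markers gave 0 calls among 4 tested, also at an unadjusted p under 0.05 and with edgeR and DESeq2 (Sox9, 0.49, and Krt7, -0.43), with sums of 34.0 to 146 and 52.6 to 157. Monocyte and neutrophil markers, which also report on recruited precursors of macrophages, gave 0 calls among the 3 of 15 that were tested (Ly6c2, -0.63, and Cx3cr1, -0.39), with sums of 94.0 to 239 in GF and 45.8 to 172 in CV. At an unadjusted p under 0.05 limma and edgeR also gave 0 of these 3, and DESeq2 gave 1 as lower. The part of these cell types in the marker differences was not tested.

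**Figure D5:**
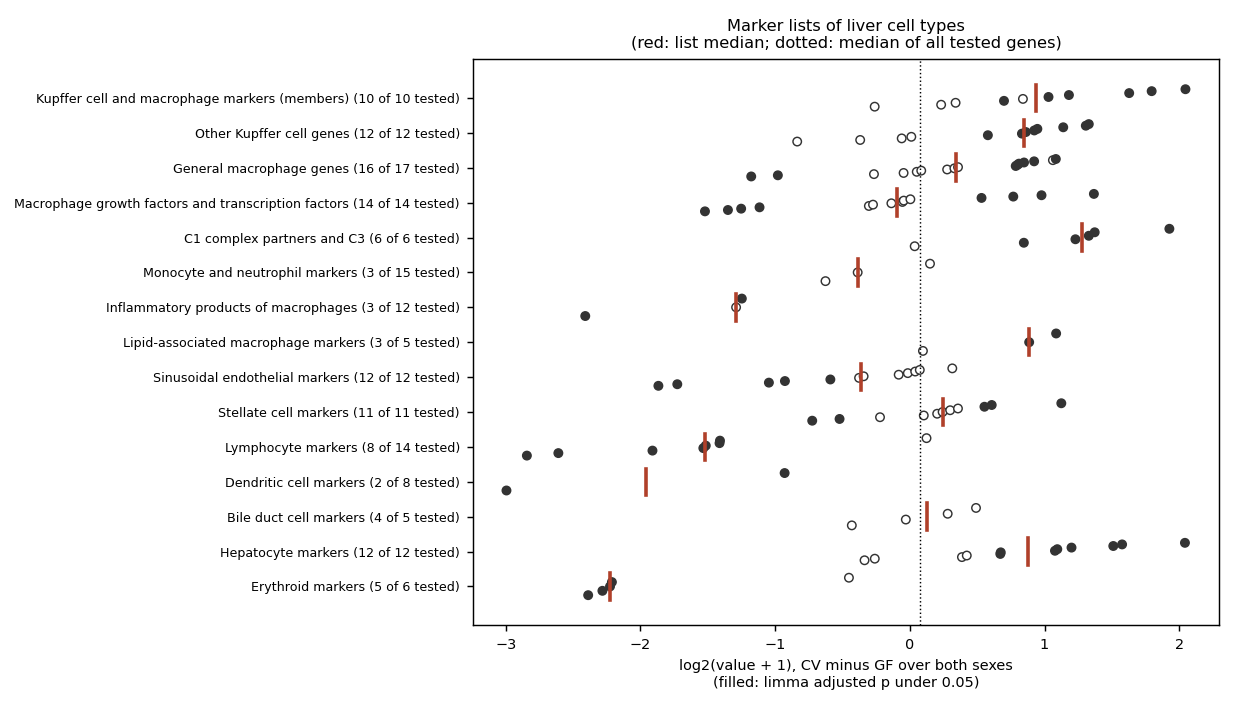
Difference between CV and GF livers over both sexes (horizontal axis, log2 units) for each tested gene of 15 lists. Filled points passed an adjusted p of 0.05 in limma, red bars give the median of a list, and the dotted line is the median of all tested genes (0.07). The Kupffer cell, complement and hepatocyte lists lie mostly right of that line, whereas lymphocyte, dendritic cell and erythroid markers lie left of it, apart from 1 lymphocyte marker.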

How the data were processed

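Poly(A)-selected stranded libraries from snap-frozen liver were sequenced on an Illumina instrument. The submitters' processing notes name HTSeq (0.6.1p1), DESeq2 and GRCm38, whereas the aligner and the annotation release were not given in the sources used here. The deposited unit is a normalised signal per gene: the authors divided the read counts of each library by 1 size factor. Divided by the value of 1 read, 100% of them came out whole within 0.01 reads in each library, and these recovered reads were used where counts were needed. These covered 5993619 to 15290835 reads per library, and read counts cover sampling error only.

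Groups were taken from the sample titles, 3 libraries per condition and labelled sex. limma (3.58.1, R 4.3.3) was fitted to log2(value + 1) of all 12 libraries with 1 mean per group and a variance trend, over the 11782 genes with a mean value of at least 10, and p-values were adjusted by Benjamini-Hochberg. The script was tested on simulated data. edgeR (4.0.16, quasi-likelihood with TMM factors) and DESeq2 (1.42.0) on the recovered reads, other pseudocounts, filters and scalings, covariates, the replicate number, thinning, removal of a trend on length and GC content, and each library left out were the alternatives. Coordinates and exon lengths are from the mouse GENCODE release M21 (GRCm38), which listed 40254 of the 41128 identifiers, and promoters are from RefSeq.

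The markers and the other lists were chosen with earlier results of these data known. All markers were named. Of each other list the 2 genes with the smallest p over both sexes were named, and 10 genes by their likeness to the markers. The ratio to Clec4f and its alternatives, the removal of the trend for the other lists, and the likeness and the counts at an unadjusted p without the library labelled CV male 3 were chosen after the values had been seen. The paper supplied with the series describes another experiment, and no method was taken from it. One gene of the list of growth factors and transcription factors is not reported here.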

Additional observations from a re-analysis of the deposited data

Results flagged for a closer look

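Of 20 groups tested (each marker in the 6 GF and in the 6 CV libraries), 1 held a library far from the others by the test of Dixon, and chance alone flags about 1 group in 20. This was Lyz2 in GF livers, where GF female 2 had a normalised read count of 678 (255 reads) and the other 5 libraries had 50.1 to 190 (189.9 in GF male 3). Its gap to the nearest library was 0.778 of the whole range, beyond the critical value of 0.625. It was also the highest of the GF libraries for Cd5l (396), Timd4 (79.8), C1qa (130.3) and C1qb (274), within smaller gaps. Without it the difference of Lyz2 between CV and GF females was 2.49 (adjusted p = 0.000115, limma) in place of 1.68.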

How the results depend on the processing

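Of the markers, 5 were called higher in males, 5 in females and 6 over both sexes. With the share of mitochondrial ribosomal RNA or of the abundant loci as a covariate, 0 were called in males, 0 in females and 0 over both sexes, although the estimates of the 5 markers called in both sexes were larger over both sexes. In females the count was 8 when scaled to all reads, 2 when scaled to reads outside the abundant loci, 3 after thinning, 1 after removal of the length and GC trend and 3 at a threshold of 0.01, beside 5832, 1858, 2772, 3175 and 2640 of all genes called higher. Removal of that trend also gave 1 marker called lower in CV in females and 1 over both sexes, where the main count was 0. Leaving out each library gave 5 to 6 calls in males, 3 to 5 in females (3 without GF female 3) and 5 to 7 over both sexes. The cause of these changes was not tested. Markers that differed between the sexes in GF livers, 0 in the main test, numbered 2 with DESeq2, 1 when scaled to reads outside the abundant loci, 1 after thinning, 2 after removal of the trend, and 0 to 2 with each library left out (2 without CV male 1 and 1 without the library labelled CV male 3).

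Signs changed only for markers without a call in the main test. Clec4f turned to -0.0101 in males, -0.45 in females and -0.23 over both sexes when scaled to reads outside the abundant loci, and to -0.14, -0.61 and -0.37 after removal of the length and GC trend. Timd4 in males turned to 0.11 with edgeR, 0.15 with DESeq2, 0.23 when scaled to all reads, 1.496 and 0.88 with the mitochondrial and the abundant share as covariate, and ran from -0.65 to 0.38 with each library left out. In females it turned to 0.35, 3.21 and 1.47 under the last 3 of these settings and over both sexes to 0.29, 2.35 and 1.18. Marco turned to -0.89 in males, -2.89 in females and -1.89 over both sexes with the share of abundant loci as a covariate, and to -0.16 in females after removal of the trend. Csf1r turned to -0.29 in females and -0.12 over both sexes when scaled to reads outside the abundant loci.

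Between the conditions, replicate numbers did not mark pairs: deviations of same-numbered libraries correlated at -0.228 to -0.0935 in males and -0.167 to 0.0188 in females. Between the labelled sexes these correlations were 0.0593 to 0.403 in GF and 0.118 to 0.193 in CV livers. With the replicate number as a block the counts were 5, 5 and 6, and over all genes 7228 were called over both sexes in place of 7194. Between the sexes the block left 0 markers called in GF and 0 in CV livers, with 281 in place of 192 and 8 in place of 7 of all genes. Depth limits Marco and Adgre1, which had as few as 4 and 15 reads in a library.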

Other observations

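The genes whose values followed the markers most closely across libraries were sought, after the mean of each group had been removed so that the condition itself did not enter. Over the 12 libraries, the mean deviation of the 10 markers correlated most with Chst12 (r = 0.964), Fcna (0.938), Anxa1 (0.920), Colec10 (0.914) and Golm1 (0.908). Fcna, which encodes ficolin A, a lectin of the complement system made by macrophages of liver and spleen, averaged 202 in GF and 375 in CV livers and was higher in CV by 0.92 (adjusted p = 0.00253, limma). Colec10, which encodes a collectin of liver, averaged 114 and 122 and did not pass (0.14, adjusted p = 0.559). The next were Rerg (0.902), Cdkn1a (0.900), Sec24a (0.895), Marcks (0.894) and Hnrnpa3 (0.892), of which Sec24a was lower in CV by 1.07 (807 in GF and 396 in CV, adjusted p = 4.35e-05). These correlations are a description over libraries that share their scaling and depth. The largest deviation of the markers was that of the library labelled CV male 3 (0.62). Without it, r was 0.938 for Chst12, 0.911 for Fcna, 0.908 for Anxa1, 0.843 for Colec10 and 0.944 for Golm1, and 0.804 to 0.881 for the other 5, and 2 of the 10 (Chst12 and Golm1) remained among the 10 closest genes.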
